A study of Mus musculus with 32 samples.

Results

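Liver gene expression under a short-light photoperiod was set against that under a long-light photoperiod at 1 clock time, zeitgeber time (ZT) 12. The comparison used every library labelled SL (short light) ZT12 and every library labelled LL (long light) ZT12, which gave 8 of the 32 libraries of the series, 4 SL mice and 4 LL mice. All mice were male C3H/HeNCrl, an inbred strain, and all were fed a high-fat diet (labelled HFD), so neither a control diet nor another strain enters the comparison. Poly-A RNA from whole liver was sequenced from 1 mouse per library, and the other 24 libraries were SL and LL mice at ZT0, ZT6 and ZT18. The sources used here state neither how many hours of light each photoperiod had nor what marks ZT0. A difference between SL and LL at ZT12 is therefore a difference at the same labelled clock time, and mice at the same ZT need not have been at the same point relative to dusk.

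In liver cells the circadian clock is a transcriptional loop. BMAL1 (the product of Arntl) pairs with CLOCK or NPAS2 at DNA elements called E-boxes and drives the Per and Cry genes, whose products repress that pair. A second loop acts on Arntl itself, where REV-ERB receptors (Nr1d1, Nr1d2) repress and ROR receptors activate through a shared element. Output factors of the PAR bZIP family (Dbp, Tef, Hlf) and their antagonist NFIL3 pass the rhythm on to genes of lipid, sugar and drug metabolism, and feeding time can shift the liver clock.

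Total counts ranged from 11903471 to 26524188 over the 8 ZT12 libraries, with a median of 15705345.5, and 19817 to 22343 genes had at least 1 read. Hepatocyte markers such as Alb and Ttr summed to between 154200 and 157200 CPM (read counts scaled to library size) in SL and between 140000 and 154800 CPM in LL, and only Fgb of the 9 was called. Lymphocyte markers summed to at most 8.99 CPM, neutrophil markers to at most 2.69 CPM, adipocyte markers to at most 15.7 CPM and skeletal muscle markers to at most 1.58 CPM in any of the 8 libraries, and edgeR called 0 of their 15 tested members (1 at an unadjusted p under 0.05, and 1 called by DESeq2). Of 8 pancreatic acinar markers 7 did not pass the filter on low counts, and 6 of these 7 (Ctrb1, Prss2, Pnlip, Cela2a, Cpa1 and Try4) had 45 to 249 reads in SL ZT12 replicate 3, against 0 to 2 reads in the other 7 ZT12 libraries. Erythroid markers summed to 269.3 to 443.3 CPM in SL and 313.3 to 399.5 CPM in LL, and edgeR called 0 of 4. Each library is a separate mouse by the labels, and the p-values rest on the variation among them.

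One library stood apart before any group was compared. LL ZT12 replicate 3 correlated with its 3 group mates at a mean r of 0.9686 in log2 CPM, against 0.9824 to 0.9889 for the other 7 ZT12 libraries. It lay at least 1 log2 unit above all its mates in 288 genes and below all of them in 411, whereas each of the other 7 libraries did so in 3 to 31 genes upward and 20 to 97 genes downward. The deviation moved with gene length and with GC content. Genes were ordered by exonic length and cut into 4 bins of like size. In replicate 3 the median gene of the shortest bin lay 0.33 log2 units above the mean of its group mates, and that of the longest bin lay -0.363 log2 units from it, whereas SL libraries stayed within 0.055. In bins of GC content it lay -0.259 log2 units from its mates in the lowest bin and 0.224 above them in the highest, whereas SL libraries stayed within 0.083. Its ribosomal protein transcripts, which are short, summed to 5700 CPM, outside the 3517 to 3724 CPM of SL. Cebpb, which codes for a transcription factor of the acute and fasting responses, stood at 62.8 CPM in replicate 3, against 10.8 to 13.2 CPM in the other 3 LL mice, and Hipk2, a kinase gene with a long transcript, stood at 5.37 CPM, against 37.5 to 50.9 CPM. What made this library differ was not tested, and results that rest on it are given below with and without it.

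**Figure D1:**
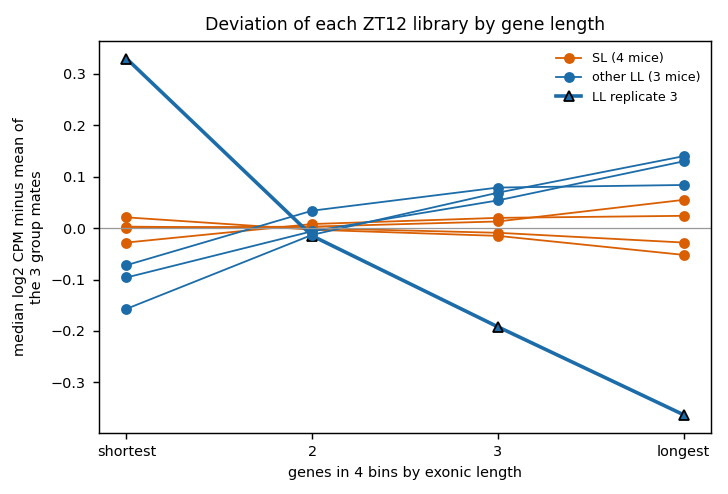
Deviation of each ZT12 library from its group mates by gene length. The x axis gives 4 bins of genes by exonic length and the y axis the median log2 CPM minus the mean of the 3 mates. LL replicate 3 (triangles) runs from 0.33 in the shortest bin to -0.363 in the longest, and the 4 SL lines stay within 0.055 of 0.

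Across the liver transcriptome, short and long light differed widely at ZT12. Of 14456 genes tested, 1799 (12.4%) passed edgeR's quasi-likelihood test at an adjusted p under 0.05, of which 874 (6.05%) were higher in SL and 925 (6.4%) lower. The differences were mostly moderate. The median log2 difference was 0.568 among genes called higher and -0.508 among genes called lower, while over all tested genes it was -0.00716. A difference of at least 1 log2 unit, a factor of 2, was reached by 177 genes called higher and 145 called lower, and 2 log2 units by 39 and 29. In 1424 of the called genes the 4 SL values and the 4 LL values did not overlap, and over all tested genes the groups did not overlap in 2085 (14.4%), with SL above LL in 1121 (7.75%) and below in 964 (6.67%).

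Without LL ZT12 replicate 3, 1682 genes (11.5%) were called. Of the 1799 genes called with it, 1249 (69.4%) were also called without it, all in the same direction, 664 higher and 585 lower in SL. A further 550 were called only with it and 433 only without it. A fit to the 8 ZT12 libraries alone called 723 genes, 405 higher and 318 lower, and 701 of them (97%) were among the 1799 (39% of these). The same fit with LL replicate 3 left out called 1920 genes, and 1270 of them (66.1%) were among the 1799. Why these counts differ was not tested.

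Clock genes held the extremes of the comparison. All 3 activator genes were higher in SL, against 6.05% of all tested genes. Npas2, a partner of BMAL1, was at 5.36, 12.9, 13.6 and 9.80 CPM in the 4 SL mice, against 0, 0.127, 0.316 and 0.0757 CPM in the 4 LL mice. In reads that was 62 to 210 in SL and 0 to 7 in LL, so Npas2 was close to undetected in LL and its log2 difference of 6.18 ± 0.52 (SE; adjusted p = 6.14e-10) depends on the prior count. Arntl was at 37.8, 41.3, 36.6 and 38.8 CPM in SL, against 4.75, 2.61, 1.76 and 4.32 CPM in LL (log2 difference 3.52 ± 0.27, adjusted p = 1.09e-10). SL mice lay within a narrow band for Arntl and every one exceeded every LL mouse. Clock was at 64.2, 50.4, 55.0 and 41.9 CPM in SL, against 34.0, 20.6, 14.9 and 27.8 CPM in LL, a smaller difference of 1.12 ± 0.20 (adjusted p = 0.000172). On build GRCm38, Npas2 lies at chr1:39193731-39363236 (plus strand) and Arntl at chr7:113207465-113314126 (plus strand).

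Among the 8 repressor genes, 5 were lower in SL, 1 was higher and 2 did not pass. Per1 was at 10.3, 6.63, 7.57 and 11 CPM in SL, against 47.4, 38.0, 63.6 and 38.4 CPM in LL (-2.40 ± 0.29, adjusted p = 5.68e-07). Per3 was at 17.4, 12.2, 9.84 and 14.5 CPM in SL, against 91.2, 106, 128 and 95.6 CPM in LL (-2.97 ± 0.26, adjusted p = 1.03e-09). Per2 differed less, at 66.4, 39.5, 58.6 and 66.7 CPM in SL, against 79.9, 84.8, 110 and 99.8 CPM in LL (-0.69 ± 0.18, adjusted p = 0.0096), though its groups did not overlap either. The 3 Period transcripts were thus all lower in SL but by unequal amounts.

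Ciart, which codes for a repressor that binds BMAL1, was at 1.64, 0.468, 0.971 and 0.879 CPM in SL, against 17.4, 20.8, 51.9 and 13.4 CPM in LL. Its log2 difference was -4.72 ± 0.49, and -4.12 without LL replicate 3, the highest of the LL values. Bhlhe41 (DEC2), a repressor that competes at E-boxes, was low throughout at 0.0676 to 0.432 CPM in SL and 1.2 to 2.84 CPM in LL (-2.71 ± 0.55, adjusted p = 0.000846). Cry1 went the other way from the Period genes, at 50.3, 42.6, 54.2 and 50.1 CPM in SL, against 16.8, 14.6, 9.70 and 16.4 CPM in LL (1.78 ± 0.14, adjusted p = 1.76e-10). Cry2 (-0.21 ± 0.10, adjusted p = 0.164) and Bhlhe40 (-0.40 ± 0.27, adjusted p = 0.367) overlapped between the groups and did not pass.

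Both REV-ERB genes were lower in SL. Nr1d1 was at 3.11, 5.53, 3.56 and 2.16 CPM in SL, against 37.3, 60.6, 61.2 and 38.1 CPM in LL (-3.78 ± 0.35, adjusted p = 3.68e-09), and Nr1d2 was at 13.1, 16, 10.4 and 11.4 CPM, against 93.8, 99.9, 88.1 and 100 CPM (-2.91 ± 0.20, adjusted p = 8.31e-12). Rora, which codes for an activator acting through the same element, overlapped between the groups, at 58.1 to 110 CPM in SL and 38.7 to 79.1 CPM in LL (0.24 ± 0.20, adjusted p = 0.491). At ZT12 SL livers therefore held less transcript of the Arntl repressors Nr1d1 and Nr1d2 and more of Arntl than LL livers.

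The PAR bZIP genes were lower in SL and their antagonist was higher. Dbp had the most negative log2 difference of the named falls, at 2.94, 1.95, 3.04 and 3.58 CPM in SL, against 54.0, 89.7, 168 and 68.9 CPM in LL (-5.04 ± 0.42, adjusted p = 5.44e-10). Tef was at 76.6 to 110 CPM in SL and 282 to 331 CPM in LL (-1.74 ± 0.14), and Hlf at 57.8 to 73.3 CPM and 72.0 to 106 CPM with an overlap of 1 value (-0.48 ± 0.15, adjusted p = 0.0274). Nfil3 was at 55.5, 52.9, 51.1 and 55.0 CPM in SL, against 22.7, 25.2, 24.2 and 27.3 CPM in LL (1.11 ± 0.13, adjusted p = 4.21e-07). Every clock gene given here as called stayed called without LL replicate 3. Of 16 alternatives, Hlf lost its call in 5, the fit to the 8 ZT12 libraries alone among them (largest adjusted p = 0.0959). Per2 lost its call in 1, without SL replicate 2 (adjusted p = 0.0559). Dbp shares 539 exonic bases with Sphk2 on the opposite strand and Nr1d1 shares 263 with Thra, and the sources used here do not say whether reads were counted by strand.

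**Figure D2:**
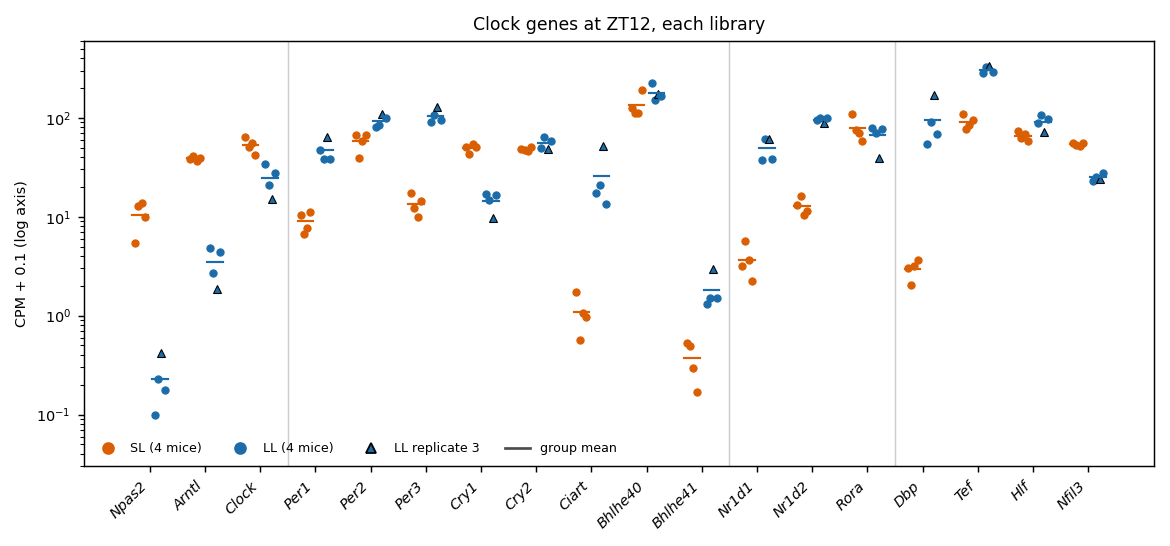
Clock transcripts at ZT12 in each library, as CPM plus 0.1 on a log axis, SL to the left of LL, with group means as bars. Vertical lines separate activators, repressors, nuclear receptors and PAR bZIP factors with Nfil3. SL lies above LL for Npas2, Arntl, Clock, Cry1 and Nfil3, and the triangles mark LL replicate 3.

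Promoter sequence was read for these genes because the loop is wired through short DNA elements. RefSeq promoters (GRCm38.p6, 250 bases before to 50 after each start) matched 10485 of the 14456 tested genes by symbol. The E-box CACGTG, which is its own reverse complement, occurred in the promoters of 10.7% of genes called higher in SL (71 of 663 with a promoter), 15.1% of genes called lower (106 of 700), 11.3% of genes not called and 8.09% of all genes in the promoter table. The core of the ROR element, TAGGTCA on either strand, occurred in 3.77% of genes called higher, 2.71% of genes called lower, 2.47% of genes not called and 2.97% of all genes in the table. Among called genes with a log2 difference of at least 1 in size, the E-box share was 16.1% of those higher (18 of 112) and 14.5% of those lower (12 of 83). The ROR core shares of these genes were 5.36% (6 of 112) and 1.2% (1 of 83). None of the shares was tested, and those of the larger differences rest on too few genes to set an order. Among the clock genes, no match to either element was found in the listed promoters of Npas2, Clock, Per3, Cry2, Nr1d1, Nr1d2, Rora, Dbp and Hlf. Bhlhe41, Tef and Nfil3 held a match and are not shown. Promoters of 4 genes that hold a match are shown with these letters in capitals. They are those of an activator gene with a ROR core and of 3 repressor genes with E-boxes, of which Cry1 was higher in SL and Per1 and Ciart lower. The first listed start of Arntl and the second of Per1 held no match. Arntl is the second of its 2 listed starts (chr7:113207261-113207560, plus strand), Cry1 lies at chr10:85185005-85185304 (minus strand), Per1 at chr11:69098699-69098998 (plus strand) and Ciart at chr3:95882179-95882478 (minus strand).
Arntl: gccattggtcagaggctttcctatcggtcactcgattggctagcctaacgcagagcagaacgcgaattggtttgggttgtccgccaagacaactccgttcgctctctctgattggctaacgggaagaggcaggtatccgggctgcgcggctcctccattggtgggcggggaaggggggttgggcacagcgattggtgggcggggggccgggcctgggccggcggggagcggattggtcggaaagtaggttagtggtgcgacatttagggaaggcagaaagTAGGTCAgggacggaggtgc
Cry1: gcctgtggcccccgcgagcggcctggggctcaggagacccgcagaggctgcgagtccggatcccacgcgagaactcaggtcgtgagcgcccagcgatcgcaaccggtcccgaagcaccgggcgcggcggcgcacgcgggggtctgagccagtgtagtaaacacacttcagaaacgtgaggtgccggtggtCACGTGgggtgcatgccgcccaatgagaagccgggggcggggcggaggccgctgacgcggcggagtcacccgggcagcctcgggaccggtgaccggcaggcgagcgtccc
Per1: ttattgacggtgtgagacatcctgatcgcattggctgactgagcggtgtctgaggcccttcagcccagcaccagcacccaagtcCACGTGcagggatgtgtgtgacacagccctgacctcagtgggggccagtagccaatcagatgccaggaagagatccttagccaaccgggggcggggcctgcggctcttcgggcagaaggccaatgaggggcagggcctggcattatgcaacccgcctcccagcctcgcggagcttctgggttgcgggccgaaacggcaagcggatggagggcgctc
Ciart: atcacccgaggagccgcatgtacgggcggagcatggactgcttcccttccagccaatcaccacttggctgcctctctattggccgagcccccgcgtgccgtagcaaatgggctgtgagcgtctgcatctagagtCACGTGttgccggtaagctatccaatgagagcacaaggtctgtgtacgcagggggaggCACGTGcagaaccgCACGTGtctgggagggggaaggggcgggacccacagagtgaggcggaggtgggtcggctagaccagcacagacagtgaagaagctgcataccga
The ROR core of Arntl begins 30 bases after the start, the E-box of Cry1 at -60 and that of Per1 at -166. Ciart, among the most strongly lower transcripts in SL, holds 3 E-boxes, at -116, -58 and -44. The same 6 letters thus stood before a gene that was higher and genes that were lower in SL, and a match of letters does not show that a factor bound there.

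The 12 largest rises and 12 largest falls among non-overlapping genes held clock genes described above and, outside the clock, genes of lipid and nucleotide metabolism. Elovl3, an elongase of very long chain fatty acids, was at 734, 516, 534 and 507 CPM in SL, against 36.3, 52.3, 52.3 and 55.6 CPM in LL (3.54 ± 0.24, adjusted p = 9.17e-12). Its neighbour Pitx3, a homeobox gene that shares 10 exonic bases with it on the opposite strand, was at 3.04 to 6.39 CPM in SL and 0 to 0.127 CPM in LL, where it had at most 2 reads per library. Reads running on from Elovl3 cannot be told apart from Pitx3 transcripts if counting ignored strand.

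Chka, the choline kinase of phosphatidylcholine synthesis, was at 260, 219, 205 and 223 CPM in SL, against 37.6, 30, 37.5 and 35.3 CPM in LL (2.69 ± 0.22, adjusted p = 3.4e-10). Cdkn1a, the cell cycle inhibitor p21, was at 21, 16.8, 19.4 and 20.3 CPM in SL, against 2.40, 1.97, 2.17 and 2.27 CPM in LL (3.13 ± 0.29). In both of these the SL and LL values were far apart and tight within each group. Several rises were at low levels, with Slc34a2 (a phosphate transporter, 4.02 ± 0.60), Npnt (an extracellular matrix protein, 2.79 ± 0.52), Zbtb7c (a zinc finger factor, 2.79 ± 0.61), Clic3 (an intracellular chloride channel protein, 2.66 ± 0.38) and Dhrs9 (a retinol dehydrogenase, 2.65 ± 0.28) all under 8 CPM in every library.

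Of the falls, Upp2, the uridine phosphorylase that starts uridine breakdown, was at 197, 117, 134 and 156 CPM in SL, against 865, 813, 1064 and 724 CPM in LL (-2.52 ± 0.20, adjusted p = 1.76e-10). Usp2, a deubiquitinase gene under clock control, was at 7.43, 4.05, 3.82 and 6.36 CPM in SL, against 39.5, 37.4, 52.0 and 35.0 CPM in LL (-2.93 ± 0.28). Noct (nocturnin, an NADPH phosphatase) was at 12.6, 3.98, 5.18 and 6.42 CPM in SL, against 48.2, 46.4, 51.9 and 60.8 CPM in LL (-2.90 ± 0.43). These 3 transcripts were separated without overlap. Ppp1r3g, a glycogen-targeting subunit of protein phosphatase 1, was low at 0.270 to 0.779 CPM in SL and 2.97 to 8.62 CPM in LL, with LL replicate 3 the highest (-3.30 ± 0.64, and -2.77 without that library). Bmf, a pro-apoptotic BCL2 family gene, was at 3.92 to 8.34 CPM in SL and 14 to 33.4 CPM in LL (-2.11 ± 0.46). Acot3, a peroxisomal acyl-CoA thioesterase gene with near-identical neighbours that can share reads, was at 4.60 to 7.32 CPM in SL and 10.3 to 34.6 CPM in LL (-2.10 ± 0.50). All 24 genes of the largest rises and falls, the clock genes among them included, were still called without LL replicate 3, the largest adjusted p being 0.00508.

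The SL minus LL difference at ZT12 was then set against the same difference at ZT0, measured in other mice. At ZT0, 1596 genes (11%) were called. Of these, 861 were also called at ZT12, which is 47.9% of the ZT12 calls and 53.9% of the ZT0 calls, and all 861 had the opposite sign. Tested directly, the difference at ZT12 departed from that at ZT0 in 3030 genes (21%), 1393 (9.64%) upward and 1637 (11.3%) downward. The mean of both differences, which keeps what the times have in common, was called for 0 genes by edgeR (smallest adjusted p = 0.227), with 1282 genes (8.87%) at an unadjusted p under 0.05, and for 2 genes by DESeq2. Without LL replicate 3, 996 genes were called at both times and 995 of them had opposite signs.

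**Figure D3:**
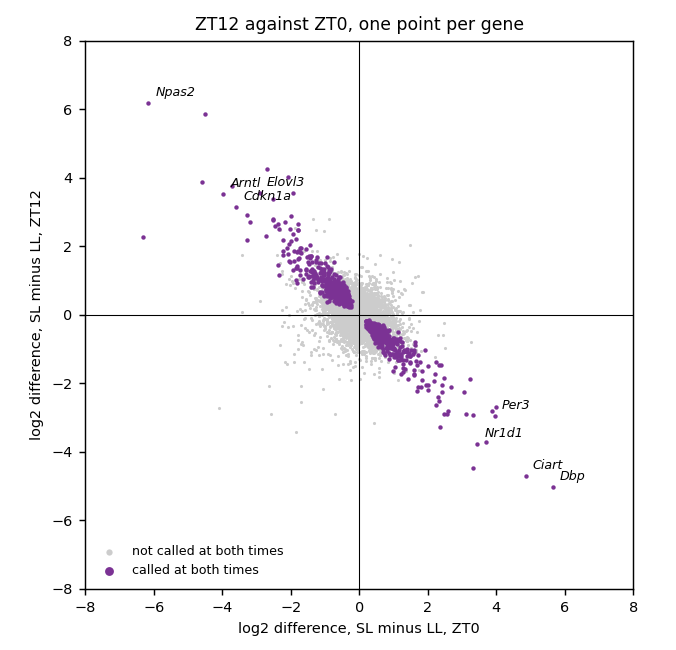
Log2 difference SL minus LL at ZT12 (y axis) against that at ZT0 (x axis), one point per tested gene. The 861 genes called at both times (purple) all lie in the upper left and lower right of the plot.

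By gene, the departures from ZT0 named here, chosen by their smallest p, were sign changes of similar size. That choice favours large differences of opposite sign, so the shared pattern carries no weight of its own. Ppard, a lipid-sensing nuclear receptor, was at 57.5, 55.3, 57.5 and 58.8 CPM in SL, against 9.05, 9.49, 11.8 and 9.62 CPM in LL at ZT12. Its log2 difference was 2.51 ± 0.15 at ZT12 and -2.35 at ZT0, which differed by 4.87 ± 0.22 (adjusted p = 5.06e-16). Clpx, the unfoldase of a mitochondrial protease, was at 492, 548, 523 and 458 CPM in SL, against 89.8, 94.1, 66.1 and 88.9 CPM in LL, and its difference was 2.58 ± 0.18 at ZT12 and -2.45 at ZT0. For neither gene did the SL and LL values at ZT12 come near each other. Pnkd differed by 1.38 at ZT12 and -1.20 at ZT0, Nr1d2 by -2.91 and 2.55, and Tef by -1.74 and 2.21.

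The departure from ZT6 was called for 2790 genes (19.3%), 1461 (10.1%) upward and 1329 (9.19%) downward, and that from ZT18 for 828 (5.73%), 396 (2.74%) upward and 432 (2.99%) downward. Usp2, Upp2 and Por (the electron donor of microsomal P450 enzymes) had the smallest p against ZT6. Usp2 differed by -2.93 at ZT12 and 4.01 at ZT6, Upp2 by -2.52 and 2.08, and Por by -1.63 and 2.48. Against ZT18, Cry1 and Nr1d1 were among the smallest p. Cry1 differed by 1.78 at ZT12 and -1.04 at ZT18, and Nr1d1 by -3.78 and 2.77. These 2 repressor genes thus both changed sign between ZT12 and ZT18, in opposite directions. At ZT6 2208 genes (15.3%) were called. Of the 662 called at both ZT12 and ZT6 (36.8% of the ZT12 calls and 30% of the ZT6 calls), 74 had the same sign. At ZT18 1331 genes (9.21%) were called, and of the 460 called at both ZT12 and ZT18 (25.6% of the ZT12 calls and 34.6% of the ZT18 calls), 405 had the same sign.

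A smaller set differed at ZT12 from every other time. In 247 genes (13.7% of the ZT12 calls) the ZT12 difference was called and departed in its own direction from the differences at ZT0, ZT6 and ZT18, in 147 upward and in 100 downward. Arntl, Elovl3, Ppard and Clpx were among the 147, and Dbp, Nr1d2 and Ciart among the 100. Arntl differed by 3.52 at ZT12 and by -0.32 and 0.24 at ZT6 and ZT18, neither of which passed. Dbp differed by -5.04 at ZT12 and by -0.81 and -0.20 at ZT6 and ZT18, neither of which passed. For both genes the photoperiods were thus far apart at ZT0 and ZT12, with no call at ZT6 or ZT18.

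**Figure D4:**
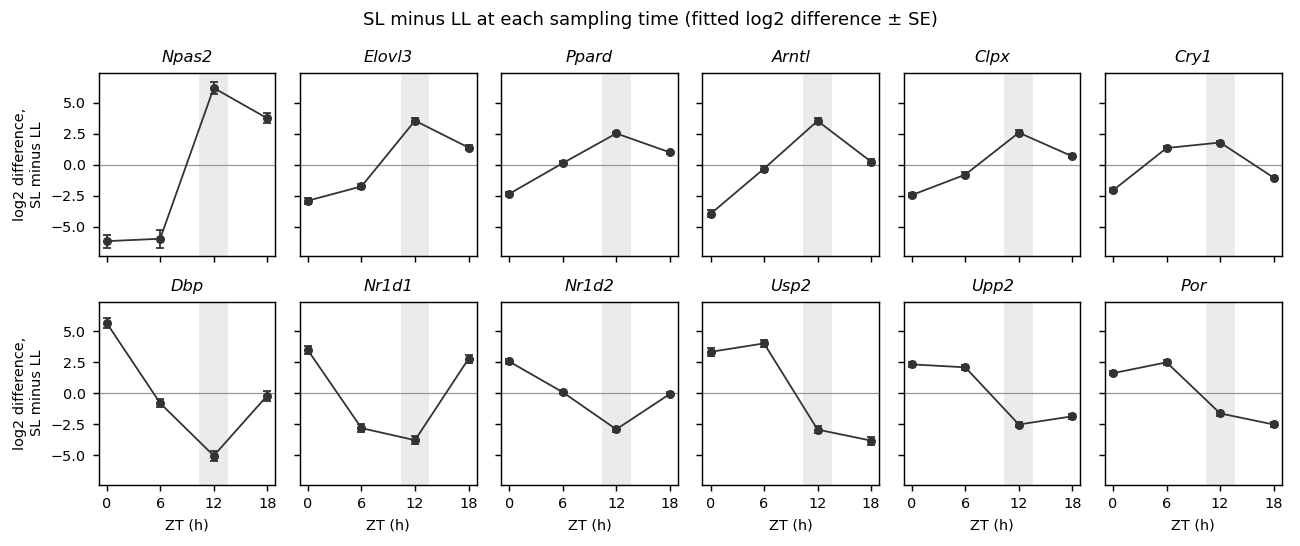
Fitted log2 difference SL minus LL (± SE) at ZT0, ZT6, ZT12 and ZT18 for 12 named genes, with ZT12 shaded. Arntl, Ppard and Clpx are negative at ZT0 and highest at ZT12, Dbp and Nr1d2 the reverse, and Cry1 and Nr1d1 change sign between ZT12 and ZT18.

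Metabolic and stress genes were described by lists, each read against the 6.05% of tested genes called higher and 6.4% called lower (5.6% and 5.9% without LL replicate 3). In the list of gluconeogenesis and the fasting response 10 of 20 tested members were called lower in SL and 0 higher (median log2 difference -0.484). The enzyme genes G6pc, Fbp1, Pcx and Got1 and the transporter gene Slc37a4 were among the members not called. Pck1, the rate-limiting gluconeogenic enzyme, was at 1537, 932, 1108 and 926 CPM in SL, against 2369, 2684, 3067 and 3012 CPM in LL (-1.31 ± 0.23, adjusted p = 0.000151). Sds, which turns serine into pyruvate, was at 52.0 to 66.5 CPM in SL and 163 to 358 CPM in LL (-1.87 ± 0.20), and the fasting transcription factors Foxo3 (-0.71 ± 0.10) and Klf15 (-0.70 ± 0.12) fell with it. Sds shares 360 exonic bases with Plbd2 on the opposite strand. Without LL replicate 3, 8 of the 20 were called lower. Cebpb (-1.81 with that library, adjusted p = 0.00298, and -0.78 without, adjusted p = 0.0844) and Gpt (adjusted p = 0.0953 without) lost the call.

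Cholesterol synthesis and uptake was lower in SL, with 11 of 26 members called lower and 1 higher (median -0.362), and 14 lower and 0 higher without LL replicate 3. Msmo1, a sterol methyl oxidase, was at 181, 164, 137 and 136 CPM in SL, against 263, 357, 347 and 263 CPM in LL (-0.99 ± 0.14, adjusted p = 4.94e-06). Nsdhl, which acts after it, was at 72.6 to 78.8 CPM in SL and 104 to 142 CPM in LL (-0.76 ± 0.10). Acat2 (-0.51 ± 0.12), a thiolase that makes acetoacetyl-CoA at the start of the pathway, and Fdps (-0.68 ± 0.16), which makes its isoprenoid intermediates, also fell. The single call upward was Srebf2, the gene of the factor that drives this pathway, at 0.31 (adjusted p = 0.0344), and it was lost without LL replicate 3 (adjusted p = 0.14). At ZT0, where 11% of all tested genes were called, 15 of the 26 were called higher in SL and 0 lower.

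In fatty acid and triglyceride synthesis 6 of 25 members were lower and 2 higher. Thrsp, a lipogenic regulator, was at 778, 452, 751 and 892 CPM in SL, against 1796, 1613, 2369 and 1584 CPM in LL (-1.36 ± 0.23). Lpin2 (-1.02 ± 0.18), a phosphatidate phosphatase, and Acss2 (-0.70 ± 0.14), which makes acetyl-CoA from acetate, fell, whereas Elovl3 and Agpat2 (0.43 ± 0.09), an acyltransferase, rose. For fatty acid oxidation and ketogenesis the count was 6 lower and 1 higher of 30, and 7 lower and 2 higher without LL replicate 3. Cpt1a, the gate of mitochondrial fatty acid entry, fell by 0.54 on the log2 scale, and the thioesterase gene Acot4 by 0.92. Pdk4, which shuts off pyruvate oxidation in fasting, was the single rise with all libraries, at 37.5, 40.6, 25.4 and 23.7 CPM in SL, against 6.90, 11.2, 5.87 and 9.01 CPM in LL (1.95 ± 0.44). Without LL replicate 3, Fgf21 was called higher as well (0.88, adjusted p = 0.035). Of 13 lipid droplet genes 2 were higher, Plin5 (0.87 ± 0.14), a droplet coat protein, and Hilpda (0.88 ± 0.19), a lipase inhibitor, and 2 lower, among them the lipase gene Pnpla2 (-0.52 ± 0.12). The other fall, the lipase gene Lipe, lost its call without LL replicate 3 (adjusted p = 0.0649).

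Glycogen genes were split. Of 19 genes that handle glucose and glycogen, 2 were higher and 2 lower, and without LL replicate 3 the counts were 2 and 6. Ppp1r3c, which targets a phosphatase to glycogen, was at 196, 164, 178 and 189 CPM in SL, against 37.9, 37.4, 23.7 and 31.7 CPM in LL (2.48 ± 0.25, adjusted p = 1.77e-08), so the 2 targeting subunit genes Ppp1r3c and Ppp1r3g went opposite ways. Gys2, the liver glycogen synthase, was at 163 to 183 CPM in SL and 275 to 344 CPM in LL (-0.86 ± 0.11), Ugp2, which makes its substrate, fell by 0.45 on the log2 scale, and the glycolytic gene Pgk1 rose (0.33 ± 0.09). Of 17 insulin signalling genes, Irs2, the main liver adaptor of the insulin receptor, was the 1 rise with all libraries, at 18.8, 20.7, 20.7 and 21.4 CPM in SL, against 5.38, 12.7, 6.77 and 8.93 CPM in LL (1.27 ± 0.29, adjusted p = 0.00273), and Foxo1 and Foxo3 fell. Without LL replicate 3, Grb14 was called higher as well (0.25, adjusted p = 0.0319).

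Bile acid genes were mixed as well, with 3 of 22 higher and 5 lower. Cyp7a1, the rate-limiting enzyme of bile acid synthesis, was at 91.0, 126, 86.8 and 134 CPM in SL, against 506, 336, 290 and 303 CPM in LL (-1.71 ± 0.33, adjusted p = 0.000464). The sterol exporter pair fell together, Abcg5 by 0.96 and Abcg8 by 0.87 on the log2 scale, but their exons share 82 bases on opposite strands. Fgfr4, the receptor through which gut FGF15 lowers Cyp7a1, rose (0.42 ± 0.08). SL and LL did not overlap for any of these 4 genes.

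Of 30 genes of amino acid breakdown and the urea cycle, 3 were higher and 3 lower. The rises were Bhmt (0.73 ± 0.15) and Cbs (0.42 ± 0.09), both of homocysteine removal, and Hal (0.48 ± 0.11), which degrades histidine. Xenobiotic receptors and P450 enzymes had 7 of 22 members called lower and 0 higher. Por was at 161, 128, 115 and 145 CPM in SL, against 479, 421, 441 and 356 CPM in LL, Cyp2a5 fell by 1.44 on the log2 scale, and so did the receptor genes Nr1i3 (CAR, by 0.93) and Nr1i2 (PXR, by 0.45). Nr1i3 shares 3304 exonic bases with Tomm40l on the opposite strand. Without LL replicate 3, 5 of the 22 were called lower, and Cyp2e1 (adjusted p = 0.081) and Cyp1a2 (adjusted p = 0.0834) no longer passed. Among 26 conjugation enzymes 7 were lower and 1 higher, and in the fit to the 8 ZT12 libraries alone 1 was lower and 1 higher. Gclc, the first enzyme of glutathione synthesis, was that rise, at 434, 500, 458 and 401 CPM in SL, against 229, 258, 154 and 254 CPM in LL (1.002 ± 0.154), while the glucuronosyltransferase genes Ugt1a6a (-0.98 ± 0.18), which shares exons with other Ugt1a genes, and Ugt2b5 (-0.31 ± 0.07) fell. Ugt2b5 lost its call in the ZT12 fit (adjusted p = 0.0694).

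NAD synthesis and sirtuin genes were lower in SL in 7 of 18 and higher in 0, with and without LL replicate 3. In the fit to the 8 ZT12 libraries alone 3 of 17 were lower. Nampt, the rate-limiting enzyme of NAD salvage and a known clock target, was at 61.8, 50.4, 54.2 and 59.7 CPM in SL, against 145, 119, 74.2 and 126 CPM in LL (-1.04 ± 0.14, adjusted p = 4.39e-06). Nmrk1, which makes NAD from nicotinamide riboside, was at 13.2 to 17.6 CPM in SL and 27.4 to 41.7 CPM in LL (-1.24 ± 0.17). Nadsyn1 (-0.46 ± 0.08) and the mitochondrial sirtuin gene Sirt5 (-0.49 ± 0.10) fell too, the second losing its call in the ZT12 fit (adjusted p = 0.0517). At ZT0 6 of these 18 genes were called higher in SL.

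Protein folding genes were higher in SL. Of 22 ER chaperone and folding genes, 12 were higher in SL and 0 lower (median 0.334), and 9 were higher without LL replicate 3 (median 0.232). Hspa5 (BiP), the main ER chaperone, was at 1142, 864, 835 and 1167 CPM in SL, against 519, 520, 458 and 627 CPM in LL (0.92 ± 0.15, adjusted p = 5.72e-05). Hyou1, its nucleotide exchange factor, was at 221, 188, 174 and 249 CPM in SL, against 83.3, 93.9, 55.7 and 122 CPM in LL (1.23 ± 0.20), and the ER folding genes Creld2 (1.15 ± 0.18) and Pdia4 (0.72 ± 0.11) rose too. At ZT0 2 of the 22 were called, both higher, and the list's median was -0.066. These were Herpud1 and P4hb, neither of which was called at ZT12. The ZT12 difference departed from that at ZT0 in 11 of the 22, against 21% of all tested genes.

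Cytosolic and mitochondrial heat shock chaperones had 6 of 22 members higher and 0 lower, and 5 without LL replicate 3. Hspb1, a small heat shock protein, was at 6.22, 5.46, 5.18 and 6.56 CPM in SL, against 1.39, 1.53, 2.80 and 1.44 CPM in LL (1.69 ± 0.21), and Hsp90ab1, Hsp90aa1 and Hspa4l rose by 0.45, 0.94 and 0.86 log2 units. In the integrated stress response list 2 of 18 were higher, Atf5 (0.60 ± 0.11) and Ddit4 (0.96 ± 0.24), a transcription factor and an inhibitor of mTOR signalling. The median was 0.043, and without LL replicate 3 the count was 4 of 18 and the median 0.244. Acute phase proteins had 6 of 22 higher and 0 lower (5 and 0 without LL replicate 3). The fibrinogen chain genes Fga (0.66 ± 0.12) and Fgg (0.56 ± 0.11), Crp (0.45 ± 0.08) and the lipopolysaccharide-binding protein gene Lbp (0.82 ± 0.15) were among them. Fgg lay at 3082 to 3290 CPM in SL and 2140 to 2199 CPM in LL, so the range within each group was small beside the gap.

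**Figure D5:**
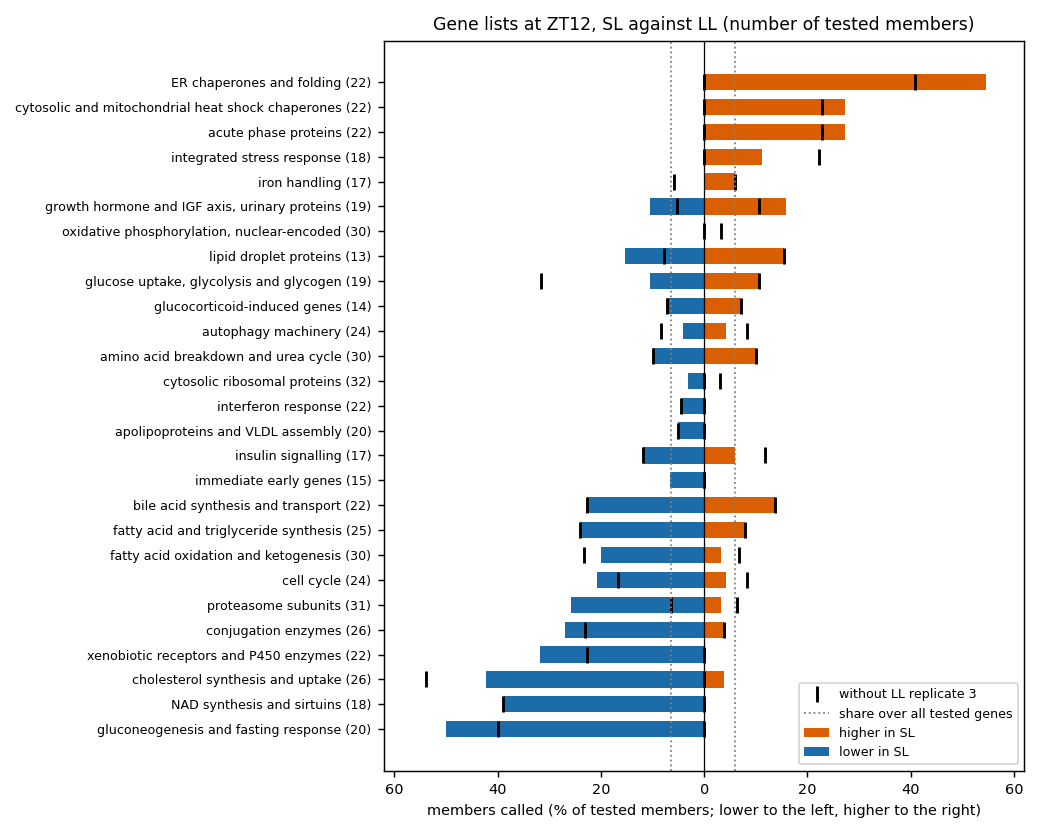
Share of the tested members of each pathway list with at least 13 tested members that was called higher (right) or lower (left) in SL than in LL at ZT12. Black ticks give the shares without LL replicate 3 and dotted lines the 6.05% and 6.4% over all tested genes. ER chaperones reach furthest to the right and gluconeogenesis furthest to the left, and the proteasome bar shrinks without replicate 3.

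Cell cycle genes had 5 of 24 members lower and 1, Cdkn1a, higher (median -0.279). Without LL replicate 3 the counts were 4 lower and 2 higher (median -0.093). Wee1, a mitotic inhibitor and known clock target, was at 8.81, 9.04, 10.3 and 8.45 CPM in SL, against 24.4, 32.5, 12.7 and 26.6 CPM in LL (-1.39 ± 0.21), and Gadd45a (-1.16 ± 0.28) and Cdk2 (-0.49 ± 0.11) fell. In the growth hormone and IGF list 3 of 19 were higher, among them Stat5b (0.60 ± 0.09), the signal transducer of growth hormone, and 2 lower, among them its receptor gene Ghr (-0.25 ± 0.06). Of 17 iron genes, Slc11a2, an iron transporter, was the only call with all libraries (0.62 ± 0.11), and without LL replicate 3 the counts were 1 higher and 1 lower. Rbm3, a cold-inducible RNA-binding protein gene, was at 16.8 to 20.5 CPM in SL and 20.6 to 27.8 CPM in LL (-0.47 ± 0.10). Its relative Cirbp did not pass (-0.20 ± 0.15).

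Other lists lay near the background or moved with LL replicate 3. Glucocorticoid-induced genes had 1 of 14 higher (Cdkn1a) and 1 lower (Per1), the second also a clock gene, interferon response genes 1 of 22 lower (Ifih1, -0.34 ± 0.11), apolipoproteins 1 of 20 lower (Apoa5, -0.29 ± 0.10), and autophagy genes 1 of 24 higher (Sqstm1, 0.24 ± 0.08) and 1 lower (Bnip3, -0.30 ± 0.10). Of 16 alternatives, Ifih1, Apoa5 and Bnip3 each lost the call in 8 and Sqstm1 in 7, most of them with 1 library left out, and their largest adjusted p were 0.286, 0.227, 0.0972 and 0.193 in that order. The 1 immediate early gene called of 15, Zfp36, lost its call without LL replicate 3 (adjusted p = 0.15). No tested member of the nuclear-encoded oxidative phosphorylation list (30) or of the mitochondrially encoded list (6) was called by edgeR with all libraries. In the first list 3 had an unadjusted p under 0.05 and DESeq2 called 1, and in the second both counts were 0. Without LL replicate 3, edgeR called 1 member of the first list higher. Proteasome subunits had 8 of 31 lower and 1 higher, and 2 and 2 without LL replicate 3, in which Psmb7 (-0.24, adjusted p = 0.0219) and Psmd11 (0.34, adjusted p = 0.00137) remained. Ribosomal protein genes had a median of -0.207 with LL replicate 3 and 0.013 without it. Rpl32, the only one called of 32 with that library, lost its call without it (adjusted p = 0.348), and 1 was then called higher.

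Some markers of other liver cells were higher in SL. Of 10 sinusoidal endothelial markers 4 were higher and 0 lower (median 0.293), against 6.05% of all tested genes called higher, with a summed level of 457.3 to 524.2 CPM in SL and 335.8 to 472.6 CPM in LL. Without LL replicate 3 the count was 2, and in the fit to the 8 ZT12 libraries alone 0. Stab2, a scavenger receptor of these cells, was at 117, 139, 113 and 129 CPM in SL, against 102, 92.2, 77.0 and 105 CPM in LL (0.41 ± 0.09), and Cdh5, the endothelial cadherin, rose by 0.59. Kupffer cell markers summed to 416.9 to 477.1 CPM in SL and 325.1 to 394.6 CPM in LL without overlap (median 0.375), and Clec4f alone of the 12 passed (adjusted p = 0.0428), and none did without LL replicate 3 (adjusted p = 0.0549 for Clec4f). Among cholangiocyte markers Sox9, a transcription factor of bile duct cells, was at 7.95, 9.20, 10.2 and 7.71 CPM in SL, against 2.34, 4.08, 2.75 and 3.86 CPM in LL (1.42 ± 0.23), whereas the other 5 tested markers were not called. Stellate cell markers summed to 335.5 to 405.8 CPM in SL and 319.6 to 387.6 CPM in LL, with 0 of 11 called by edgeR or DESeq2 with all libraries, 2 at an unadjusted p under 0.05 and 1 called without LL replicate 3. What part these markers had in the other results was not tested. In whole liver, fewer cells of a type and less RNA per cell cannot be told apart.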

How the data were processed

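Whole-liver poly-A RNA of 32 mice was sequenced from TruSeq stranded mRNA libraries, per the labels' protocols. The values used are raw read counts per gene as deposited by the authors. The submitters' processing notes name bcl2fastq 2.20.0, STAR 2.7.2b, featureCounts 1.6.2 and the mouse builds GRCm38 and mm10. Strand setting, annotation and the treatment of reads that map to several genes: not given in the sources used here. A second deposited table of log2 values was not used. Libraries were tied to samples by library number, and groups come from the sample titles.

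Counts were analysed with edgeR 4.0.16 in R 4.3.3. Genes passing filterByExpr by group (14456 of 32791 with a read) were scaled by TMM, a composition correction, and fitted with 8 group means over all 32 libraries, so that all groups share one estimate of the spread. SL minus LL at ZT12, its departure from the same difference at ZT0, ZT6 and ZT18, and the mean of ZT0 and ZT12 were tested by two-sided quasi-likelihood F-tests with Benjamini-Hochberg adjustment over all tested genes and a threshold of 0.05. Fold changes are edgeR's fitted log2 differences at its default prior count, a small added count that keeps them finite, and ± is the standard error. Log2 CPM in the correlations and in the counts of genes at least 1 log2 unit from their mates had a prior count of 2. In the bins of length and GC content a pseudocount of 1 was added to CPM. CPM are TMM-scaled and not corrected for length, so levels are compared between groups and not between genes. Gene coordinates, lengths and overlaps come from GENCODE M21 (GRCm38).

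Alternatives were DESeq2 1.42.0 size factors or its test, TMM factors that leave out mitochondrial genes and the top 20 by abundance, no or a stricter low-count filter, a replicate block, fewer libraries, and each library left out in turn. Leaving out LL ZT12 replicate 3 from a fit to the ZT12 libraries alone was added after seeing the data. In simulated counts for SL against LL at ZT12 (14257 genes), 46 of 50 genes with a log2 change of -2, 44 of 50 at -1, 42 of 49 at 1, 48 of 50 at 2 and 6 of 14058 unchanged genes were called. The simulation used a single mean per gene for all other groups and changed far fewer genes than were called in the data. It held no library like LL ZT12 replicate 3, so these counts do not give the power or error rate of the real comparison.

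The gene lists, motifs and naming rule were chosen with earlier results of these data known. Named are genes with a mean of at least 1 CPM and no placeholder symbol: the 12 largest rises and 12 largest falls without overlap between groups, all tested clock genes, 2 to 4 members per list with the smallest p, the 6 (ZT0) or 3 (ZT6, ZT18) smallest p of each departure, and genes in which LL ZT12 replicate 3 stood furthest from its mates. Members named because they lost a call, were the only call or missed the test in a list (Cebpb, Gpt, G6pc, Fbp1, Pcx, Got1, Slc37a4, Srebf2, Lipe, Cyp2e1, Cyp1a2, Cirbp) were chosen after their values were seen. Some genes that this rule names are not reported here. Lists are described by counts and medians and were not tested.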

Additional observations from a re-analysis of the deposited data

Results flagged for a closer look

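Among 126 genes named with values, 252 groups of 4 mice were examined for a single mouse far from the other 3, and the test used flags about 1 in 20 groups by chance. LL ZT12 replicate 3 gave 9 of the 16 values found. It was above its mates for Bhlhe41 (2.84 CPM, next highest 1.40), Ppp1r3g (8.62 CPM, next 3.63), Sds (358 CPM, next 179), Nr1i3 (216 CPM, next 139), Hspb1 (2.80 CPM, next 1.53), Rpl32 (205 CPM, next 111) and Cebpb (62.8 CPM, next 13.2), and below them for Ifih1 (34.2 CPM, next lowest 53.0) and Pdxk (12.0 CPM, next lowest 61.2). Cebpb and Pdxk were named because this library stood apart in them, so their place here carries no weight.

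SL ZT12 replicate 1 was above its mates for Elovl3 (734 CPM), Clic3 (7.77 CPM), Klf15 (119 CPM) and Bnip3 (88.5 CPM). SL ZT12 replicate 4 was below its mates for Abcg5 (57.4 CPM) and Ifih1 (32.5 CPM). LL ZT12 replicate 2 was above its mates for Slc2a5 (21.1 CPM).

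The SL minus LL difference at ZT12 departed from that at ZT0, by edgeR's test of the departure itself, by 4.87 log2 units for Ppard, -5.46 for Nr1d2, 2.58 for Pnkd, -3.96 for Tef and 5.03 for Clpx. From ZT6 it departed by -6.94 for Usp2, -4.61 for Upp2 and -4.11 for Por. From ZT18 it departed by 2.83 for Cry1 and -6.55 for Nr1d1.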

How the results depend on the processing

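DESeq2 size factors, TMM without mitochondrial and abundant genes, the DESeq2 test, both low-count filters and the replicate block gave 1488 to 1916 calls at ZT12, against 1799, and each shared at least 1341 of them in the same direction. Fitting the 8 ZT12 libraries alone gave 723 calls, 405 higher and 318 lower in SL, and 1920 calls when LL replicate 3 was left out of that fit. The cause of this change was not tested. In the fit to all 8 ZT12 libraries, the clock genes named as called except Hlf stayed called. There 9 of 20 gluconeogenesis genes and 4 of 26 cholesterol genes were lower, and 8 of 21 ER chaperone genes were higher. Lower were also 3 of 17 NAD genes, 1 of 26 conjugation enzymes, 4 of 22 xenobiotic receptor and P450 genes (1 higher), 4 of 30 fatty acid oxidation genes, 3 of 22 bile acid genes (2 higher) and 0 of 31 proteasome subunits (1 higher). Higher were 3 of 13 lipid droplet genes and 2 of 19 growth hormone and IGF genes, with 0 lower in both, and 0 genes of the interferon, iron and autophagy lists, the cold-inducible pair, and the endothelial and Kupffer cell markers were called in either direction. Leaving out each ZT12 library in turn gave 1316 (without SL replicate 4) to 2341 calls (without LL replicate 4), with 685 to 1109 higher and 631 to 1232 lower, and 1328 calls without SL replicate 3, the library with pancreatic reads. Calls for the departure ranged from 2651 to 3355 against ZT0, 2450 to 3265 against ZT6 and 604 to 996 against ZT18. The mean of ZT0 and ZT12 gave 0 calls with any library left out, 2 calls, both lower, with the DESeq2 test, and 11 (4 higher, 7 lower) with no filter on low counts. For these the cause was not tested. The replicate block gave 1779 calls. Deviations of same-numbered SL and LL mice correlated at 0.0256, 0.0842, -0.017 and -0.0526, within the -0.114 to 0.113 of mice with unlike numbers. So few pairs cannot show whether the numbers pair the mice. Pdxk, a kinase gene of vitamin B6 metabolism in which LL replicate 3 lay far below its mates, reversed to -0.28 without that library, in the fit to all times (-0.278) and in that to ZT12 alone (-0.2788), and the cause was not tested. Its value was 0.05 with all libraries and lay between -0.278 and 0.2202 with 1 library left out. Transcripts with few reads, such as Npas2 in LL, are limited by depth.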

Other observations

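Among the 247 genes whose ZT12 difference departed in its own direction from all 3 other times were some outside the lists above, which were chosen here after their values were seen. Insig2, which codes for an anchor that holds the SREBP factors in the ER, was at 677, 642, 646 and 573 CPM in SL, against 160, 182, 118 and 201 CPM in LL (1.94 ± 0.16, adjusted p = 5.44e-10). Slc30a10, a manganese exporter, was at 125, 119, 135 and 122 CPM in SL, against 31.1, 29.9, 20.4 and 40.9 CPM in LL (2.03 ± 0.16). Dnmt3b, a DNA methyltransferase, was at 8.12, 9.98, 8.80 and 9.87 CPM in SL, against 2.97, 2.10, 2.48 and 3.41 CPM in LL (1.73 ± 0.16). None of the 3 overlapped between the groups.

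Coq10b, a coenzyme Q-binding protein of mitochondria, was at 14.1, 12.4, 13.1 and 12.5 CPM in SL, against 50, 47.9, 51.9 and 45.9 CPM in LL (-1.91 ± 0.17). The fructose transporter gene Slc2a5 was at 8.03, 6.70, 7.06 and 6.22 CPM in SL, against 14.3, 21.1, 15.3 and 14.2 CPM in LL (-1.21 ± 0.15), and Slc7a2, which carries cationic amino acids, at 364, 291, 318 and 247 CPM in SL, against 679, 842, 424 and 769 CPM in LL (-1.15 ± 0.20). All 6 genes had a called difference of opposite sign at ZT0 and stayed called without LL ZT12 replicate 3.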
